A study of Rattus norvegicus with 8 samples.

Results

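Havcr1, Spp1, Lcn2, Clu, Tff3 and Cst3 encode proteins that are measured in urine as signs of kidney injury, and the levels of their transcripts were compared in kidneys of rats given colistin and rats given saline. The 6 genes were chosen by name, and their probes by RefSeq accession. Each gene had 1 probe on the array, and all 6 were among the 12378 genes tested, out of 15637 genes that could be named. Colistin is a polymyxin antibiotic whose dosing is limited by damage to renal tubules. The colistin group held 4 kidney samples from male rats labelled 10 weeks of age, taken at day 28 with a dose of 30 mg/kg, and the saline group held 4 samples of the same sex, age and day. Strain, route and number of doses are not given in the sources used here. The title of the series speaks of tubules and the sample labels of kidney, and no label says that tubules were separated from the rest of the organ. The labels number the samples of a group without tying each to its own animal, and the p-values then cover only variation among these 8 samples, some of which may be technical.

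Havcr1 encodes KIM-1, a receptor for phosphatidylserine that appears on injured proximal tubule cells and is shed into urine. Spp1 encodes osteopontin, a secreted phosphoprotein that binds integrins and CD44, and Lcn2 encodes NGAL, a lipocalin that binds bacterial siderophores and is made both by neutrophils and by stressed tubule epithelium. Clu encodes clusterin, a secreted chaperone. Tff3 encodes a trefoil peptide secreted by epithelia, whose urinary level is known to fall with tubular injury in rats. Cst3 encodes cystatin C, an inhibitor of cysteine proteases that is made by most cells, filtered by the glomerulus and taken up again by the proximal tubule. For cystatin C, urinary protein therefore reports on filtration and uptake more than on transcription in the kidney. Urinary protein was not analysed here.

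Colistin arrays were brighter than saline arrays, with a 75th percentile of processed signal of 271 to 317, against 156 to 197 on saline arrays. Of the spots, 79.1% to 83.9% were well above background on colistin arrays and 69.3% to 75.8% on saline arrays. Levels are given on a log2 scale on which 0 is the 75th percentile of each array's processed signal and a step of 1 is a doubling. On this scale the fold changes of the genes tested had a median of -0.14 in log2, against 0.64 where arrays were not scaled. The 6 probes were well above background on all 8 arrays, and no spot was saturated. The 7 markers of the proximal tubule were also well above background on all 8 arrays. Slide 1 held colistin array 2 with saline arrays 1 and 4, slide 2 held colistin array 3 with saline array 2, and slide 3 held colistin arrays 1 and 4 with saline array 3. With 4 arrays per group, precision is limited by their number.

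Of the 6 genes, Havcr1 and Spp1 rose after colistin, and Lcn2, Clu, Tff3 and Cst3 did not pass the test (limma, adjusted p over all genes under 0.05). Of all genes tested, 2.02% were called in either direction and 1.47% as higher. All 4 colistin values lay above the 4 saline values for Havcr1 and Spp1, as they did for 6.91% of all genes, and the groups were apart in either direction for 18.6%. With each probe tested by itself 2 of the 6 probes passed, against 1.48% of all probes. The log2 fold changes ran in the order Spp1, Havcr1, Lcn2, Tff3, Clu and Cst3, and only that of Cst3 was negative.

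**Figure D1:**
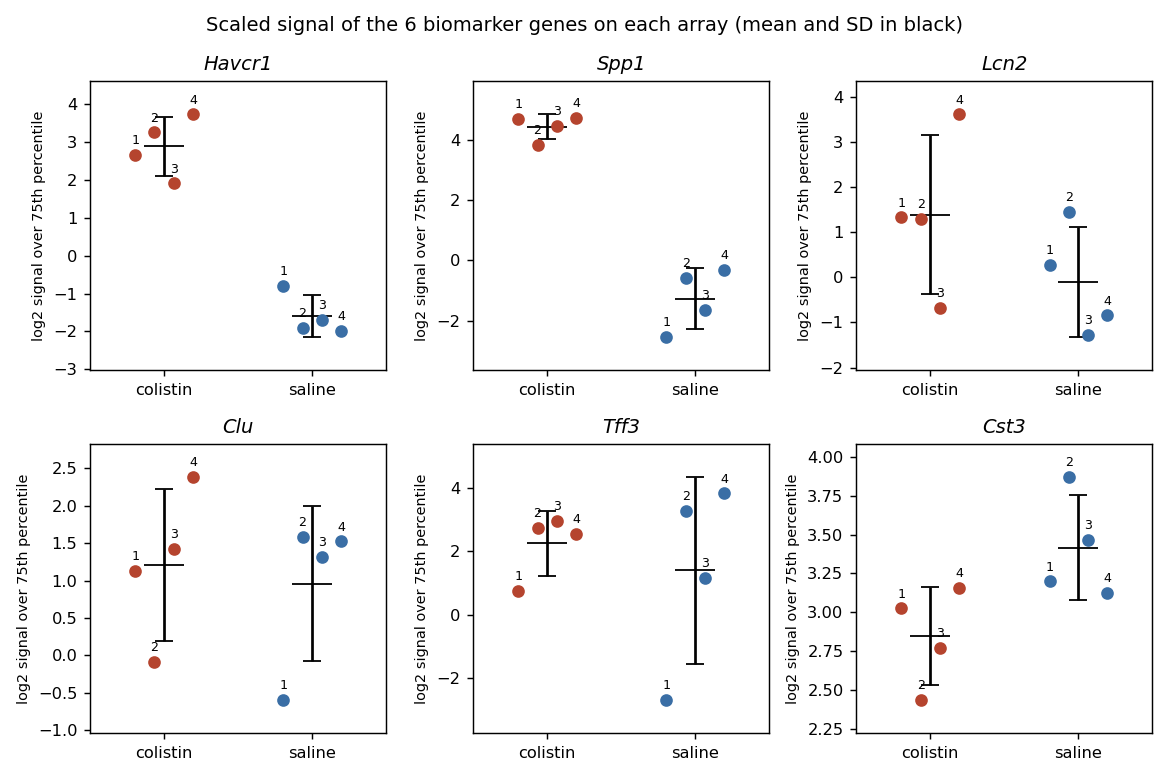
Log2 signal over the array's 75th percentile (y axis) of each of the 6 genes on the 4 colistin and the 4 saline arrays (x axis), with the array number beside each point and the group mean and SD in black. The groups are apart for Havcr1 and Spp1 and overlap for the other 4 genes, and saline array 1 is the lowest point of all for Spp1, Clu and Tff3.

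Havcr1 stood at 2.65, 3.26, 1.91 and 3.73 on colistin arrays 1 to 4, against -0.80, -1.90, -1.69 and -2.00 on saline arrays 1 to 4. The lowest colistin value lay well above the highest saline value, which was that of saline array 1. Havcr1 rose 22.4-fold, a log2 change of 4.48 ± 0.48 (SE, 4 arrays in each group) with a 95% interval of 3.39 to 5.58 (limma, adjusted p = 0.0063). Within slides 1, 2 and 3 the log2 difference was 4.65, 3.81 and 4.88. The spread was moderate in both groups, with an SD of 0.79 on colistin arrays and 0.55 on saline arrays. In bulk kidney RNA, more cells that carry a transcript and more transcript per cell cannot be told apart, for this gene or for the other 5. The proximal tubule markers, whose cells are the known site of KIM-1, had a summed scaled level of 179 to 308 on colistin arrays and 486 to 804 on saline arrays. Without scaling the sums overlapped, at 56772 to 94475 in processed signal on colistin arrays and 75869 to 125618 on saline arrays. Of these 7 markers 5 had a negative log2 fold change, against 54.8% of all genes (4 without scaling, against 21.5%). Called lower were 2, Aqp1 and Slc22a6, against 0.549% of all genes. The part of these marker levels in the Havcr1 result was not tested.

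Spp1 stood at 4.71, 3.84, 4.45 and 4.73 on colistin arrays 1 to 4, against -2.54, -0.58, -1.64 and -0.32 on saline arrays 1 to 4. The colistin arrays lay close together, with an SD of 0.42, and the saline arrays were spread more widely, with an SD of 1.02. Spp1 rose 52.1-fold, a log2 change of 5.70 ± 0.53 (SE, 4 arrays in each group) with a 95% interval of 4.48 to 6.93 (limma, adjusted p = 0.00353). It ranked 28th of all genes tested by the size of its fold change, and Havcr1 ranked 88th. The log2 difference was 5.27, 5.03 and 6.36 within slides 1, 2 and 3, and 5.28 without saline array 1 (adjusted p = 0.00525). Macrophages are another known source of osteopontin. All 6 macrophage markers tested had a negative log2 fold change, against 54.8% of all genes (5 without scaling, against 21.5%). Of them 0 were called (limma, 3 at an unadjusted p under 0.05, as had 22.7% of all genes). Their summed scaled level was 5.64 to 9.11 on colistin arrays and 12.8 to 20.9 on saline arrays, while without scaling the sums overlapped, at 1612 to 2890 on colistin arrays and 2525 to 3259 on saline arrays. Their part in the Spp1 result was not tested. The macrophage markers Cd163 and Mrc1 were not well above background on any array.

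**Figure D2:**
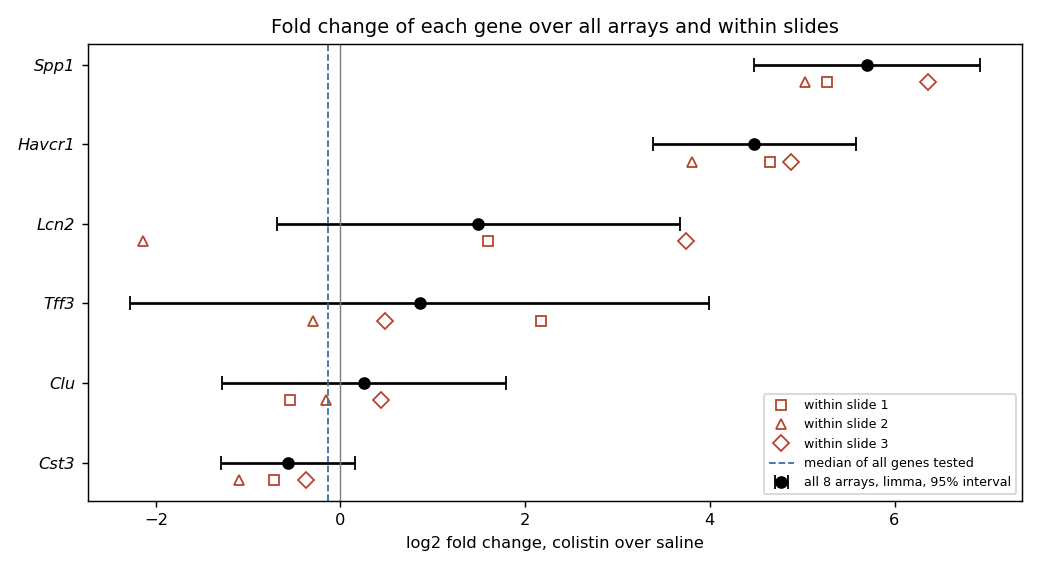
Log2 fold change of colistin over saline (x axis) for each of the 6 genes (y axis), with the limma estimate and 95% interval in black, open symbols for the difference within each slide, and a dashed line at the median of all genes tested (-0.14). The intervals of Spp1 and Havcr1 lie above 0 with all 3 slides beside them, and the other intervals include 0.

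The probe of Spp1 was printed 10 times on each array, as was that of Clu, which shows how much of their spread lies within an array. Between 9 and 10 copies of Spp1 passed the spot filter on each array, and their SD on the log2 scale was 0.032 to 0.179. The widest of these was on saline array 1, the dimmest array for Spp1, where the copies ran from 21.0 to 32.0 in unscaled processed signal. On colistin array 4, the brightest, they ran from 7203 to 9616. For Clu 8 to 10 copies passed, with an SD of 0.041 to 0.096, against an SD of 1.02 between colistin arrays and 1.04 between saline arrays. The differences between arrays of a group for both genes were thus far larger than those between spots. Havcr1, Lcn2, Tff3 and Cst3 had 1 spot per array, so their spot error was not measured.

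**Figure D3:**
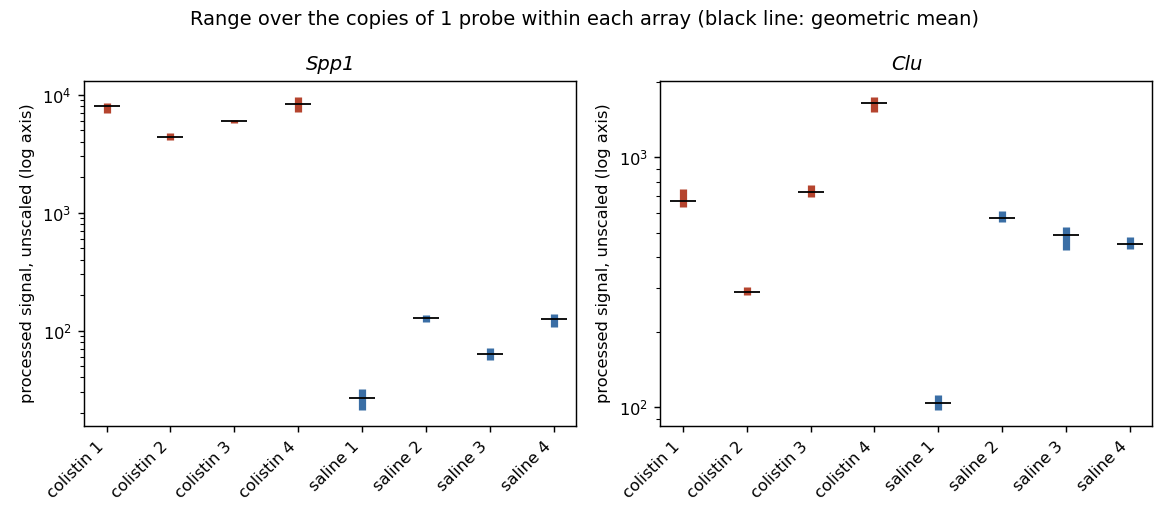
Range of unscaled processed signal (y axis, log scale) over the copies of the Spp1 and Clu probes on each array (x axis), with the geometric mean as a black line. Copies within an array lie close together, and saline array 1 is lowest for both genes, at a geometric mean of 26.8 for Spp1 and 104 for Clu.

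Sequences before the annotated starts of Havcr1 and Spp1 are shown because these 2 genes rose, and that of Lcn2 because it is a known target of NF-kB and C/EBP factors. They are from RefSeq, build GRCr8, and hold the 250 bases before the start, read 5′ to 3′ on the strand of the gene. The windows are chr10:31629528-31629777 on the plus strand for Havcr1, chr14:5619805-5620054 on the minus strand for Spp1 and chr3:36081781-36082030 on the minus strand for Lcn2. Capitals mark matches on either strand to any of 5 motifs, whose letters are given after the sequences.
Havcr1: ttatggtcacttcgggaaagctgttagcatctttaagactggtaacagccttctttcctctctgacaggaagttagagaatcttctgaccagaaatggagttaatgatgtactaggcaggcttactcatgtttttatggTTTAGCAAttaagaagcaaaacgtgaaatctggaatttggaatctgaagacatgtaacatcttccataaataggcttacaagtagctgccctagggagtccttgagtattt
Spp1: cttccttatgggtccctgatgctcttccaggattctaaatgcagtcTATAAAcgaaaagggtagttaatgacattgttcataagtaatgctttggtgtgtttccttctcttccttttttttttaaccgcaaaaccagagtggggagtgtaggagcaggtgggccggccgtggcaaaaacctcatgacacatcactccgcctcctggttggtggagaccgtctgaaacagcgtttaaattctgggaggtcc
Lcn2: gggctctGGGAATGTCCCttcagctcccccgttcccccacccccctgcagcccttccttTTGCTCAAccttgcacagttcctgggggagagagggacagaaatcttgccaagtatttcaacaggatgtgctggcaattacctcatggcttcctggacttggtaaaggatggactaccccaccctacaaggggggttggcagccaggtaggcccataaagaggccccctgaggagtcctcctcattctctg

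The C/EBP motif was searched as TTGCNNAA, where N is any base. Havcr1 held 1 match to it, on the minus strand, 111 to 104 bases before the start, Lcn2 held 1 at 191 to 184 bases, and Cst3 held 1, so that 3 of the 5 genes in the table had it, against 9.22% of all 33469 such windows. The TATA box was searched as TATAAA. Spp1 held 1 match to it, 204 to 199 bases before the start, and Tff3 held 1 at 23 to 18 bases, against 12.9% of all windows. The NF-kB motif was searched as GGGA and CC with any 4 bases between them. Lcn2 alone of the 5 held it, as 2 overlapping matches, 1 on each strand, between 243 and 233 bases before the start, against 16.4% of all windows. The STAT motif, TTCNNNGAA, was held by Tff3 alone of the 5 and by 7.67% of windows. The AP-1 motif, TGANTCA, was held by 0 of the 5 and by 6.34% of windows. Clu was not matched in the table. A match describes letters and does not show that a factor binds there.

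Lcn2 stood at 1.33, 1.31, -0.68 and 3.62 on colistin arrays 1 to 4, against 0.27, 1.46, -1.27 and -0.84 on saline arrays 1 to 4. Colistin array 4 was far above every other array and colistin array 3 lay among the saline arrays. The log2 fold change was 1.49 ± 0.95 (SE, n = 4 per group), with a 95% interval of -0.69 to 3.67 (limma, adjusted p = 0.365). The SD of 1.76 between colistin arrays was above that of 91.6% of genes, and the saline SD of 1.22 above that of 66.6%. Within slides 1, 2 and 3 the difference was 1.59, -2.14 and 3.74, so that its sign was not the same on every slide. Without colistin array 4 the log2 fold change was 0.75 (adjusted p = 0.608).

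The neutrophil markers were examined beside Lcn2, since neutrophil granules hold NGAL. The 4 neutrophil markers tested had negative log2 fold changes, against 54.8% of all genes (3 without scaling, against 21.5%). Of them 0 were called (limma, 2 at an unadjusted p under 0.05, against 22.7% of all genes). Their summed scaled level was 0.154 to 0.225 on colistin arrays and 0.293 to 0.927 on saline arrays, and without scaling the sums overlapped, at 47.3 to 60.9 on colistin arrays and 45.7 to 178 on saline arrays. On colistin array 4, where Lcn2 was highest, their median difference from the saline mean was -1.51 on the log2 scale. The part of these cells in the Lcn2 values was not tested. Of the other markers listed, S100a8 and Elane were well above background on 2 of 8 arrays, Mmp8 on 0, and Mpo was not among the probes named.

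Clu stood at 1.13, -0.081, 1.43 and 2.38 on colistin arrays 1 to 4, against -0.59, 1.58, 1.31 and 1.52 on saline arrays 1 to 4. Saline arrays 2 to 4 lay within a narrow range near the middle of the colistin values, and saline array 1 lay far below them. The log2 fold change was 0.26 ± 0.67 (SE, n = 4 per group), with a 95% interval of -1.28 to 1.79 (limma, adjusted p = 0.839). Its sign rested on single arrays. Without saline array 1 it was -0.26 (adjusted p = 0.822), without colistin array 4 it was -0.13 (adjusted p = 0.92), and within slides 1, 2 and 3 it was -0.55, -0.15 and 0.44. The interval leaves room for a rise or a fall of more than a doubling.

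Tff3 stood at 0.74, 2.74, 2.98 and 2.55 on colistin arrays 1 to 4, against -2.69, 3.27, 1.16 and 3.84 on saline arrays 1 to 4. Saline arrays 2 and 4 were the highest of all 8 and saline array 1 the lowest. The SD between saline arrays was 2.96, above that of 96.8% of genes, while that between colistin arrays was 1.02. In unscaled processed signal the saline arrays ran from 24.2 on array 1 to 2234 on array 4. The log2 fold change was 0.86 ± 1.36 (SE, n = 4 per group), with a 95% interval of -2.28 to 3.99 (limma, adjusted p = 0.724). Without saline array 1 it was -0.51 (adjusted p = 0.746), and within slides 1, 2 and 3 it was 2.17, -0.30 and 0.48.

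Saline array 1 was lowest of all 8 arrays for Spp1, Clu and Tff3 and highest of the saline arrays for Havcr1. Across genes, each colistin array correlated on average at 0.872 to 0.895 with the rest of its group, against 0.804, 0.826, 0.824 and 0.776 for saline arrays 1 to 4. Relative to the saline mean, the medians of the 13 marker lists on saline array 1 ran from -0.81 (erythrocyte) to 0.57 (distal convoluted tubule) on the log2 scale. Whether these differences bear on the 3 low values was not tested.

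Cst3 stood at 3.02, 2.44, 2.77 and 3.15 on colistin arrays 1 to 4, against 3.20, 3.87, 3.47 and 3.13 on saline arrays 1 to 4. It was the least variable of the 6, with an SD of 0.32 on colistin arrays and 0.34 on saline arrays, and its groups overlapped through colistin array 4 and saline array 4. The log2 fold change was -0.57 ± 0.31 (SE, n = 4 per group), with a 95% interval of -1.29 to 0.15 (limma, adjusted p = 0.307), and 0.21 without scaling between arrays (adjusted p = 0.735). Relative to the median of all genes it was -0.43, which this change of scaling cannot alter, and -0.067 under normexp background correction with the 75th percentile. Within slides 1, 2 and 3 it was -0.72, -1.10 and -0.38. The interval does not reach a change as large as that of Havcr1 or Spp1.

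Differences between the fold changes of 2 genes were tested on the log2 difference of their signals within each array. Subtracting the same value from all log2 signals of an array leaves that difference unchanged, while quantile normalization and normexp can alter it. The level of such a difference has no meaning between probes, and only its shift between groups is read. The 70 splits of the 8 arrays were enumerated for each of the 15 pairs (exact permutation test, two-sided), for which the smallest p is 0.0286. In 7 of the 15 pairs the groups did not overlap and this smallest p was reached. After adjustment over the 15 pairs it became 0.0612, so 0 pairs passed, and 7 had an unadjusted p under 0.05. A pair at this smallest p can pass only if more than 7 pairs reach it. The count of 0 therefore says little of whether the fold changes differ. The 7 pairs were Spp1 with Lcn2, Clu, Tff3 and Cst3, and Havcr1 with Lcn2, Clu and Cst3. Havcr1 with Tff3 had overlapping groups, with a difference of 3.63 ± 1.86 (SE, exact permutation p = 0.114, adjusted p = 0.19).

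Spp1 exceeded Cst3 by 6.27 ± 0.49 in log2 fold change (SE, n = 4 per group), the widest gap of the 15, and Havcr1 exceeded Cst3 by 5.05 ± 0.54. On colistin arrays the Spp1 to Cst3 difference lay between 1.40 and 1.68, against -5.74 to -3.45 on saline arrays. The SD of that difference was 0.13 on colistin arrays and 0.98 on saline arrays. Spp1 exceeded Clu by 5.45 ± 0.43, and the SD of their difference on saline arrays was 0.50, below the 1.02 and 1.04 of Spp1 and Clu taken alone.

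Havcr1 and Spp1 were not separated from each other, with a difference in log2 fold change of -1.22 ± 0.90 (SE, n = 4 per group) and overlapping groups (exact permutation p = 0.229, adjusted p = 0.312). Among Lcn2, Clu, Tff3 and Cst3 the 6 pairs had exact permutation p-values from 0.0857 (Lcn2 with Cst3, 2.06 ± 0.96) to 0.771 (Lcn2 with Tff3, 0.63 ± 1.94). With such errors these pairs cannot be said to act alike.

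Other transcripts of injury markers were read beside the 6. Of 26 such genes tested 4 rose and 1 fell (limma, against 1.47% and 0.549% of all genes), with a median log2 fold change of 0.92 against -0.14 over all genes. The list was drawn up with earlier results of these arrays known, so its direction is not independent evidence. The risers were Anxa2, which encodes a membrane-binding annexin, Tnfrsf12a, the TWEAK receptor gene, Gdf15, a stress cytokine gene, and Lgals3, which encodes galectin-3. Their log2 fold changes were 4.64, 4.43, 3.71 and 3.53 (adjusted p = 0.00572, 0.0349, 0.0225 and 0.0151). Egf, the epidermal growth factor precursor gene of the distal nephron, fell by 5.41 on the log2 scale (SE 0.59, adjusted p = 0.00655). It is 1 of the 5 markers of the thick ascending limb, and the only 1 of them called. Their summed scaled level was 2.02 to 8.04 on colistin arrays and 33.3 to 73.4 on saline arrays. Without scaling the sums were 617 to 2470 on colistin arrays and 5189 to 11473 on saline arrays. Such a sum is weighted to its brightest genes on saline arrays, here Umod and Egf, and says little of the others. Of those, Cldn10 and Cldn16 had overlapping groups. Tnfrsf12a lost its call when any of colistin arrays 1 to 4 or saline arrays 1 and 3 was left out (adjusted p at most 0.0919), and Gdf15 when any of colistin arrays 1 to 3 was (at most 0.0651). B2m, which encodes beta-2 microglobulin, another protein filtered and taken up again by the tubule, gave 0.09 ± 0.34 (adjusted p = 0.888). The metalloproteinase inhibitor gene Timp1 gave 2.15 ± 0.55 (adjusted p = 0.0931). Alb, the albumin gene, gave 3.12 ± 2.52 (adjusted p = 0.473), and its probe was well above background on 3 of 4 colistin arrays and 1 of 4 saline arrays, so that its size is uncertain.

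Of 16 genes tested for receptors and partners of the 6 proteins, 0 passed in either direction (limma, 0 at an unadjusted p under 0.05, against 22.7% of all genes), with a median of -0.34. Normexp background correction with the 75th percentile called 4 of the 16, and 27% of all genes. Cd44, a receptor for osteopontin, gave 0.91 ± 0.58 (adjusted p = 0.369) by its brightest probe, and 0.32 without colistin array 4. The 4 kept probes of Cd44 disagreed in size. The other 3 gave 5.12, 1.53 and 2.70, the first of them called in the fit over all probes (adjusted p = 0.0287), and were well above background on at most 2 of 4 saline arrays. The mean over the probes gave 2.56 (adjusted p = 0.0683), and normexp with the 75th percentile gave 2.21 (adjusted p = 0.0212). The lipocalin receptor gene Slc22a17 gave 0.33 ± 0.41 (adjusted p = 0.645). Cubn, the cubilin gene, gave 1.25 ± 0.84 (adjusted p = 0.389), and 0.35 without saline array 1, which stood at -1.83 against 1.56 to 1.92 on the other saline arrays. Lrp2, which encodes the endocytic receptor megalin, gave -0.63 ± 0.31 (adjusted p = 0.265) and 0.15 without scaling between arrays.

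Of the 6 cysteine protease genes whose enzymes cystatin C or its relatives inhibit, 1 fell and 0 rose, against 0.549% and 1.47% of all genes. The number called ran from 0 to 3 over the alternatives, with 3 under normexp with either scaling, the mean-variance trend and array weights. Normexp called 27% of all genes with the 75th percentile and 4.62% with quantile normalization. The mean-variance trend called 3.01% of all genes and array weights 2.5%, against 2.02% in the main fit. Ctss, the cathepsin S gene of antigen-presenting cells, fell by 2.01 on the log2 scale (SE 0.38, limma, adjusted p = 0.0427), beside the macrophage markers described with Spp1, and its call was lost when any 1 array was left out (adjusted p of 0.0583 to 0.0952). Ctsb, the cathepsin B gene, gave -0.30 ± 0.28 (adjusted p = 0.544), and 0.48 without scaling between arrays. Ctsl and Lgmn, named after their values were seen, had all colistin values above all saline values, as did 6.91% of all genes. They gave 1.72 ± 0.41 and 2.12 ± 0.46 and did not pass (limma, adjusted p = 0.0832 and 0.0624).

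Of 9 family relatives of the 6 that could be tested, among them Timd2 and Havcr2 of the Havcr1 family, Tff1 and Tff2 of the trefoil family, and Cstb, Cst6, Cst7 and Cst8 of the cystatins, 0 passed (limma, 4 at an unadjusted p under 0.05, against 22.7% of all genes), with a median of -0.73. The log2 fold changes in this list ran from -1.61 (Cst6) to 0.85 (Cstb). Normexp background correction with the 75th percentile called 6 of the 9, and 27% of all genes. Of 12 genes for transcription factors known to act on some of the 6, 1 rose (limma, against 1.47% of all genes), with a median of 1.31. An unadjusted p under 0.05 was reached by 6 of the 12 (limma), against 22.7% of all genes. The riser was Cebpb, a C/EBP factor of acute inflammation, by 1.84 ± 0.31 (adjusted p = 0.0287). Its call held only when saline array 4 was the array left out (adjusted p over the 8 omissions of 0.0394 to 0.0812).

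**Figure D4:**
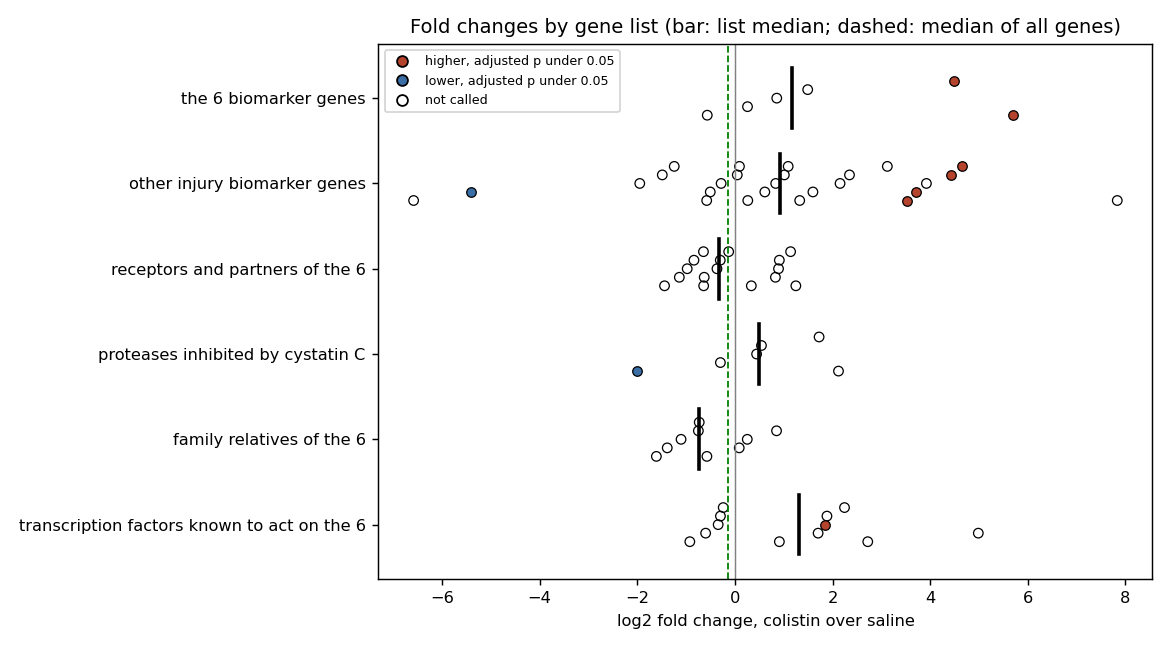
Log2 fold change of colistin over saline (x axis) of each gene tested, by list (y axis), with filled points for genes that passed the test, a bar at each list median and a dashed line at the median of all genes (-0.14). Called genes lie at the upper end among the 6 genes. Among the other injury markers they lie on both sides of 0, with the uncalled Fgb and Umod beyond them, and 0 of 16 receptors and partners were called.

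For each of the 6 genes, the genes with the most similar profile over the 8 arrays were sought among 12360 others. Likeness was measured as the root mean square difference between log2 profiles, each centred on its own mean, so a smaller value is closer. The closest to Havcr1 were Sbno2, Cmtm6 and Tgm1 (0.54, 0.58 and 0.63), and to Spp1 Olfm4, Gpr37l1 and Srxn1 (0.50, 0.79 and 0.86). Olfm4 and Gpr37l1 were well above background on 4 of 4 colistin arrays and on 0 of 4 saline arrays, and Cmtm6 on 1 of 4 saline arrays. Among the closest to Lcn2 were Hbegf and Cactin (0.41 and 0.69), and to Clu Lrrc59, Tmem185b and Aimp2 (0.34, 0.34 and 0.37). The closest to Tff3 were Slco1a5, Slc7a13 and Rbm4b (0.56, 0.59 and 0.65). The closest to Cst3 were Pspn, Obox2l1 and Ccdc85a (0.0785, 0.13 and 0.15), which like Cst3 varied little between arrays. The profiles share arrays, scaling and group, and likeness of this kind is a description of 8 arrays.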

How the data were processed

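Kidney RNA of 4 colistin and 4 saline samples was measured on 1-colour Agilent arrays, 44254 spots each. Per the file headers, the processed signal intensity is background-corrected and spatially detrended within the array by Agilent Feature Extraction (10.5 in the submitters' processing notes), without scaling between arrays. The authors also deposited a table of log2 values, whose scale and centring are not stated. Set against the scanner files, its differences between arrays correlated at 0.9998 or more, and it was used as an alternative. Column medians of the deposited table were -0.11, -0.23, -0.089 and -0.032 for colistin arrays 1 to 4, and 0.23, 0.023, 0.086 and 0.20 for saline arrays 1 to 4.

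Control spots and spots with outlier flags were left out (257 to 461 outlier spots per array). Log2 processed signals had the array's 75th percentile subtracted, and spots of a probe were averaged. Of 30367 probes, 18643 were named through RefSeq accessions, for 15637 genes. A probe was kept if 3 or more of the 4 arrays of a group flagged it as well above background, and 7 with a missing value were left out. The brightest probe stood for a gene. limma 3.58.1 (R 4.3.3, lmFit and eBayes) tested 12378 genes, with Benjamini-Hochberg adjustment and a threshold of 0.05, and the fit was tested on simulated data. Pairs of genes were compared with an exact permutation test.

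The genes named are the 6 themselves, list genes that passed, 8 list genes named whatever their result, and the 3 closest profiles for each of the 6. A further list gene and 1 of the closest profiles under this rule are not reported here. The members and lists were chosen with earlier results of these data known. The alternatives were other scalings, background corrections, filters, probe rules, variance models, array weights, slide and replicate blocks, and arrays left out. Normexp (offset 50) used the median spot signal in place of the planned mean signal, which is not among the columns of the files used here. Arrays left unscaled, and normexp with the 75th percentile, were added after seeing the data.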

Additional observations from a re-analysis of the deposited data

Results flagged for a closer look

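Clu on saline array 1 stood at -0.59 on the scaled log2 scale, far below saline arrays 2, 3 and 4 at 1.58, 1.31 and 1.52. Its gap to the nearest of these was 0.877 of the whole range of the group, above Dixon's 95% critical value for 4 samples. It was the only such value among the 12 sets of 4 arrays examined (6 genes in each of 2 groups), and chance alone marks about 1 set in 20. The nearest to it were colistin array 1 for Tff3, at 0.808, and saline array 1 for Havcr1, at 0.745, both below the critical value. The 8 copies of the Clu probe used on saline array 1 ran from 97.1 to 112 in unscaled processed signal, so the low value was shared by all of them.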

How the results depend on the processing

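Havcr1 and Spp1 kept their call under 21 of the 22 alternatives with a test, and their direction under these and within each of the 3 slides. Some of these alternatives could hardly move them, since each has 1 probe, well above background on all arrays. Under the other filters, the mean over probes and the deposited values they stayed at 4.48 and 5.70. Havcr1 ran from 3.59 to 5.27 and Spp1 from 4.96 to 6.49 on the log2 scale, lowest under normexp with either scaling and highest without scaling. With the replicate block Havcr1 stayed at 4.48 and Spp1 at 5.70 (limma, adjusted p = 0.0728 for both), so 0 of the 6 genes and 5 genes in all were called. The labels do not say whether the replicate numbers pair the samples. Across genes, same-numbered arrays correlated at -0.020 to 0.012 in their deviations from the group means, and only replicate 3 correlated best with its own number. Such a correlation over all genes cannot settle pairing for single genes. With the replicate block the SE of Tff3 went from 1.36 to 0.88 and that of Havcr1 from 0.48 to 0.53. The count of 250 genes became 40 with slide as a block, 572 under normexp with quantile normalization (351 higher, 221 lower, against 182 and 68), 1043 without scaling (1005 higher, 38 lower) and 3339 under normexp with the 75th percentile (685 higher, 2654 lower). It was 111 to 259 with 1 array left out, and 118, 112, 116 and 111 without colistin arrays 1 to 4.

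Clu turned negative with slide as a block (-0.081), without saline arrays 1 and 4 together (-0.23) and within slides 1 and 2 (-0.55 and -0.15), and ran from -0.26 to 0.69 with 1 array left out. Tff3 was -0.30 within slide 2 and ran from -0.51 to 1.67 with 1 array left out. Lcn2 was -2.14 within slide 2 and 3.74 within slide 3. Cst3 was 0.21 without scaling and -1.10 within slide 2. Without scaling Ctsb was 0.48 and Lrp2 0.15. With 1 array left out B2m ran from -0.068 to 0.31, the Clu to Tff3 difference from -1.22 to 0.25 and the Lcn2 to Tff3 difference from -0.43 to 2.12. The causes were not tested. Pairs passing the test stayed at 0 under the 7 alternatives run, of which 4 cannot alter a pair and 3 (quantile normalization and both normexp settings) can. This count had little room to rise. A pair at the smallest p passes only if more pairs reach it than the 7 of the main fit. With an array left out the pairs were given a value and were not tested. Anxa2 and Egf lost their calls with the replicate block alone. Lgals3, Gdf15, Tnfrsf12a, Cebpb and Ctss lost theirs with either block (adjusted p of 0.0671, 0.0829, 0.0961, 0.0961 and 0.0961 with slide as a block, and 0.100, 0.0958, 0.127, 0.137 and 0.170 with the replicate block), and Cebpb also under median scaling (0.0718). Ctss lost its call and Timp1 gained one without scaling (adjusted p = 0.0304 for Timp1). The closeness of Olfm4 to Spp1 moved to 1.82 and 1.95 under the 2 normexp settings. Single spots for 4 of the genes and 4 arrays per group limit what can be detected.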

Other observations

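Of the 60 cell type markers tested in 13 lists, 58 had a negative log2 fold change (96.7%, against 54.8% of all genes), and the exceptions were Cubn and Slc5a2 of the proximal tubule. Without scaling between arrays 46 were negative (76.7%, against 21.5% of all genes). The 6 endothelial markers held the most calls, with 4 lower (against 0.549% of all genes), Pecam1, Kdr, Flt1 and Plvap (limma, adjusted p = 0.0101, 0.008, 0.0386 and 0.0101). Their summed scaled level was 4.81 to 7.64 on colistin arrays and 33.4 to 53.1 on saline arrays, and without scaling 1301 to 2425 on colistin arrays and 6570 to 8286 on saline arrays. Among genes of the injury lists that did not pass, the acute phase gene Fgb, which encodes the fibrinogen beta chain, had the largest positive log2 fold change, 7.83 ± 1.68 (adjusted p = 0.0623), and the uromodulin gene Umod the most negative, -6.58 ± 1.39 (adjusted p = 0.0586). Both had groups that did not overlap, as had 18.6% of all genes in either direction. Fgb was well above background on 4 of 4 colistin arrays and 2 of 4 saline arrays. For Umod these were 3 of 4 colistin arrays and 4 of 4 saline arrays. Umod stood at -6.24 on colistin array 1 and at -0.47 to 0.40 on the other colistin arrays, so that the size of its fall is uncertain. Fgb and Umod were named here after their values were seen.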
